A study of Mus musculus with 6 samples.

Results

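A set of 6 ABC transporter genes that pump drugs and signalling molecules out of the cell were followed across E0771 mouse breast cancer cells exposed to Enniatin A (EnnA), to 17-AAG or to the solvent DMSO. They were Abcb1a, Abcb1b, Abcc1, Abcc3, Abcc4 and Abcc5, found in the tables by gene name and chosen with earlier results of these data known. All 6 had a row in the table of EnnA against DMSO, which lists 11024 genes, and 5 of the 6 had a row in the table of 17-AAG against DMSO, which lists 11305 genes. Abcb1a was listed in the EnnA table only and was not analysed for 17-AAG.

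E0771 is a mammary tumour line of C57BL/6 background. EnnA, a cyclic depsipeptide of Fusarium fungi, was given at 7.4 µM for 24 h, and 17-AAG, a geldanamycin derivative that binds HSP90, at 0.5 µM for 24 h, after 48 h of growth. The DMSO cells had the same 48 h of growth, with no exposure time stated. Each of the 3 groups had 2 libraries, which the authors pooled into 1 FPKM value per gene (fragments per length of transcript and per library total), so no spread between libraries stands beside a level and the depth per library is unknown. The labels name no separate cultures, so the authors' p-values speak for these libraries only, and in bulk RNA fewer cells with a transcript and less transcript per cell cannot be told apart.

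ABC transporters use ATP to move substrates across membranes. Abcb1a and Abcb1b encode the mouse forms of P-glycoprotein, which removes hydrophobic drugs from the plasma membrane, and 17-AAG has itself been described as a substrate of that pump. The Abcc genes encode multidrug resistance-associated proteins, which export organic anions: Abcc1 carries glutathione conjugates such as leukotriene C4, Abcc3 carries glucuronides and bile acids, and Abcc4 and Abcc5 carry cyclic nucleotides, Abcc4 also prostaglandins. In mammary tumours this group is known for lowering the drug content of tumour cells.

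In DMSO-treated cells the members differed widely in level. Abcc1 was the most abundant at 36.2 FPKM in the EnnA table, above 75.0% of the genes listed there. Abcb1b followed at 10.2 FPKM, then Abcc4 at 7.60 FPKM and Abcc5 at 5.73 FPKM. Abcc3 stood at 1.18 FPKM and Abcb1a at 0.262 FPKM. With pooled values the order of neighbours such as Abcb1b and Abcc4 could not be set against an error. Abcc1 made up 59.1% of the summed FPKM of the 6 genes, Abcb1b 16.7%, Abcc4 12.4%, Abcc5 9.37%, Abcc3 1.93% and Abcb1a 0.429%.

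**Figure D1:**
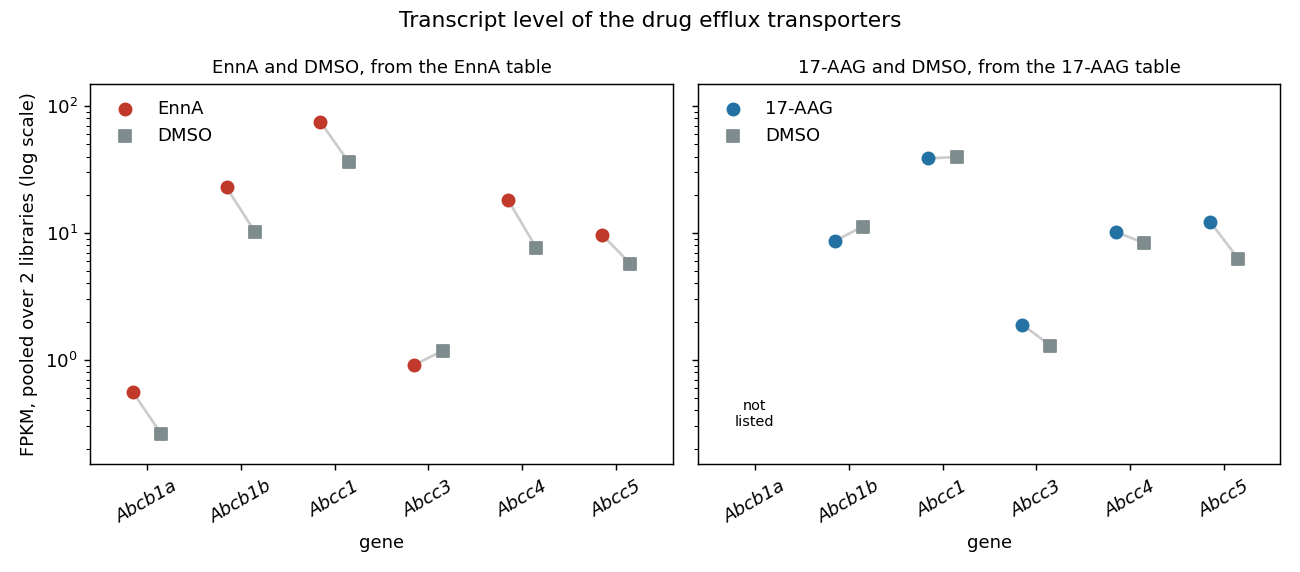
Pooled FPKM of each transporter gene on a log axis, with EnnA and DMSO values from the EnnA table on the left and 17-AAG and DMSO values from the 17-AAG table on the right; grey lines join the values of a gene. Abcb1b, Abcc1 and Abcc4 lie higher with EnnA than with DMSO and closer to DMSO with 17-AAG, while Abcc5 lies higher with each compound.

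With EnnA, 5 of the 6 members rose and 0 fell by the q of the authors' deposited table, taken as a call under 0.05. By the same rule 24.3% of all listed genes were called higher and 24.9% lower. At an unadjusted p under 0.05, in either direction, the count was also 5 of 6, beside 6001 of the 11024 listed genes. The median change over the 6 genes was 0.85 on the scale log2((compound FPKM + 1)/(DMSO FPKM + 1)), beside -0.01 over all listed genes. The ratio of the values was at least 2-fold for Abcb1a, Abcb1b, Abcc1 and Abcc4. Of all listed genes, 5.44% were both called higher and at least 2-fold. Summed over the 6 genes, the level was 126.9 FPKM with EnnA and 61.2 FPKM with DMSO, and Abcc1 held 59.0% of the sum with EnnA and 59.1% with DMSO.

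The P-glycoprotein genes lie side by side on mm9 chromosome 5, Abcb1a at 8660091 to 8748570 and Abcb1b at 8798146 to 8866314, as the authors' deposited tables give the loci (whether starts count from 0 is not given). Abcb1b had 22.8 FPKM with EnnA and 10.2 FPKM with DMSO, a 2.23-fold rise (q = 0.000207 in the authors' deposited table). Abcb1a had 0.561 FPKM with EnnA and 0.262 FPKM with DMSO, a 2.14-fold rise (q = 0.00333 in the authors' deposited table). Its EnnA value was the lowest higher-of-the-groups value of any gene in that table, 0.561 FPKM, so it was listed through the group in which it was higher and its call adds nothing to the count; without it 4 of 5 members were higher and 0 lower. On the scale with 1 FPKM added its log2 change was 0.31, against 1.09 from the ratio itself. In the GENCODE M21 transcripts, 17.0% of the 50-base windows of the longest coding Abcb1a transcript also occurred in transcripts of other genes. The share was 18.3% for Abcb1b, and the sharing was chiefly with the other member of the pair. Reads that lie wholly within such windows cannot be assigned to a single gene, so both values are uncertain. Abcb1a, at 0.561 FPKM with EnnA beside 22.8 FPKM for Abcb1b, is the more exposed of the pair. How much of its value and rise came from Abcb1b reads was not tested. No shared window was found for the 4 Abcc members.

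Among the Abcc genes, Abcc4 (mm9 chromosome 14, 118881913 to 119105441) had 18.1 FPKM with EnnA and 7.60 FPKM with DMSO, a 2.38-fold rise (q = 0.000207 in the authors' deposited table). Abcc1 (chromosome 16, 14361650 to 14474971) had 74.9 FPKM with EnnA and 36.2 FPKM with DMSO, a 2.07-fold rise (q = 0.000207 in the authors' deposited table). Abcc5, on the same chromosome at 20331376 to 20426467, had 9.65 FPKM with EnnA and 5.73 FPKM with DMSO, a 1.68-fold rise (q = 0.00136 in the authors' deposited table). Abcc3 (chromosome 11, 94204608 to 94254290) was the member that was not called, with 0.913 FPKM with EnnA and 1.18 FPKM with DMSO (q = 0.149 in the authors' deposited table).

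The changes of the called Abcc genes and of Abcb1b were among the larger rises of the table. On the scale with 1 FPKM added, Abcc4 changed by 1.15, Abcb1b by 1.08, Abcc1 by 1.03 and Abcc5 by 0.66, and 299, 352, 424 and 1179 listed genes had a larger change than these, in that order. A standard error can be read back from the authors' p, and it was at most 0.31 log2 units for Abcc4, at most 0.29 for Abcb1b and at most 0.26 for Abcc1, whose p was the lowest the authors' test can give, 5e-05. For Abcc5 it was 0.21. On the log2 scale of the deposited ratio these 4 genes lay between 0.75 and 1.25, and differences among them were not tested.

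**Figure D2:**
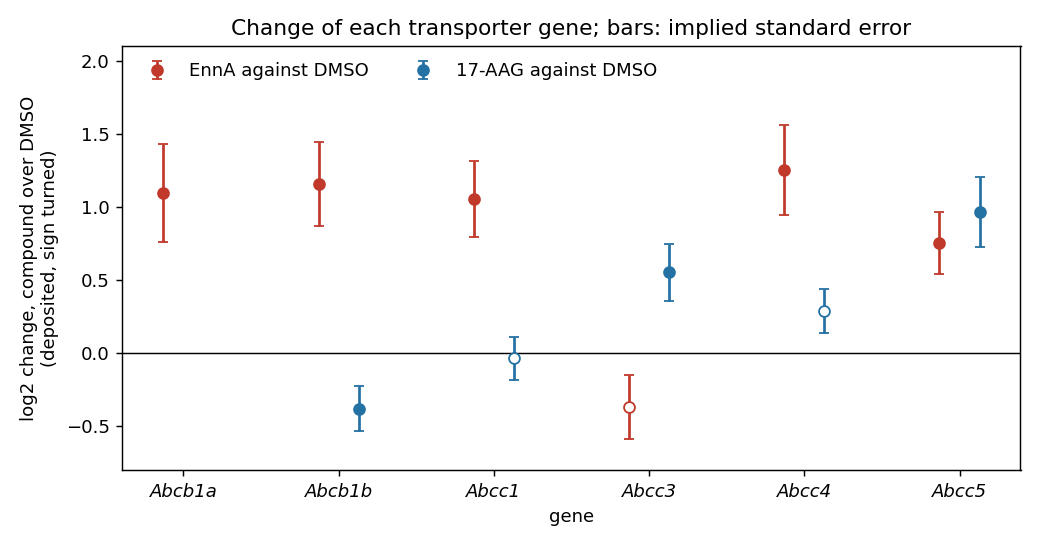
Log2 change of each transporter gene, as the ratio of compound to DMSO from the authors' deposited tables with the sign turned, with bars for the standard error read back from the authors' p (an upper limit at the lowest p). Filled points were called at q under 0.05 and open points were not; with EnnA 5 genes lie between 0.75 and 1.25, and with 17-AAG Abcc5 has the highest value, 0.96.

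With 17-AAG members were called in both directions. Of the 5 listed members 2 rose and 1 fell by the q of the authors' deposited table, beside 15.6% of all listed genes called higher and 16.1% lower. At an unadjusted p under 0.05, in either direction, the count was 3 of 5, beside 4682 of the 11305 listed genes. The median change was 0.26 on the scale with 1 FPKM added, beside -0.01 over all listed genes. Summed over the 5 genes the level was 71.6 FPKM with 17-AAG and 66.7 FPKM with DMSO. Abcc5 held 17.1% of that sum with 17-AAG and 9.41% with DMSO, and Abcb1b held 12.0% with 17-AAG and 16.8% with DMSO.

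Abcb1b had 8.63 FPKM with 17-AAG and 11.2 FPKM with DMSO, a log2 change of -0.34 on the scale with 1 FPKM added (q = 0.0499 in the authors' deposited table). That call lies at the threshold: with q computed over the 10932 genes listed in both tables it was 0.0507, and the gene was then not called. Abcc5 had 12.2 FPKM with 17-AAG and 6.28 FPKM with DMSO, a 1.95-fold rise (q = 0.000453 in the authors' deposited table), and 274 listed genes had a larger change. Abcc3 rose 1.47-fold, to 1.90 FPKM with 17-AAG against 1.29 FPKM with DMSO (q = 0.0186 in the authors' deposited table).

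The other Abcc members did not pass the test with 17-AAG. Abcc1 had 38.7 FPKM with 17-AAG and 39.6 FPKM with DMSO (q = 0.887 in the authors' deposited table). Abcc4 had 10.1 FPKM with 17-AAG and 8.32 FPKM with DMSO (q = 0.136 in the authors' deposited table). The implied standard errors of their log2 changes were 0.15 each on the log2 scale of the deposited ratio. Abcc5 was the member called higher with both compounds, as were 4.49% of the 10932 genes listed in both tables. The comparisons share their DMSO libraries.

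DMSO values in the 17-AAG table were 1.10 times those in the EnnA table, within 1% of that factor for 99.99% of shared genes, so the tables hold the same DMSO measurement on separately normalized scales. Divided by that factor, 17-AAG values stand beside the EnnA table as follows. Abcb1b had 22.8 FPKM with EnnA, 7.87 FPKM with 17-AAG and 10.2 FPKM with DMSO. Abcc1 had 74.9, 35.3 and 36.2 FPKM in EnnA, 17-AAG and DMSO cells, and Abcc4 had 18.1, 9.26 and 7.60 FPKM in the same order. EnnA cells were the highest group for these 3 genes. For Abcc5 the values were 9.65 FPKM with EnnA, 11.2 FPKM with 17-AAG and 5.73 FPKM with DMSO, and for Abcc3 they were 0.913, 1.73 and 1.18 FPKM, with 17-AAG cells highest for both.

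The difference between the compounds, the log2 change with EnnA minus that with 17-AAG, was tested over 10922 genes with the implied errors, and 3 of 5 members were higher and 1 was lower with EnnA at an adjusted p under 0.05. Over all genes tested 19.3% were higher and 18.9% lower with EnnA. For Abcb1b the difference was 1.53 (95% interval 0.90 to 2.17), a 2.90-fold higher ratio with EnnA. For Abcc1 it was 1.08 (0.50 to 1.67) and for Abcc4 0.96 (0.29 to 1.64). Abcc3 differed in the opposite direction, by -0.92 (-1.50 to -0.35). For Abcc5 the difference of -0.21 did not pass the test, with an interval of -0.84 to 0.41 that leaves room for a moderate difference either way. The errors used are upper limits for Abcb1b, Abcc1 and Abcc4 with EnnA and for Abcc5 with 17-AAG. The error of the shared DMSO libraries is counted for both compounds. Both points widen the intervals, so their width is not an exact measure of uncertainty. The doses of the compounds differed, so these are differences between the 2 exposures as given.

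**Figure D3:**
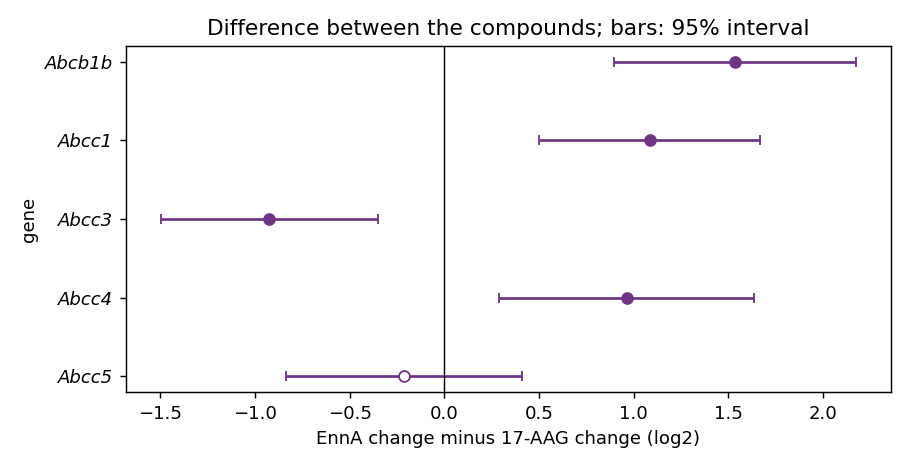
Difference between the log2 change with EnnA and that with 17-AAG for the 5 transporter genes listed in both tables, with 95% intervals from the implied standard errors; filled points passed the test. Abcb1b, Abcc1 and Abcc4 lie above 0, Abcc3 lies below 0 and the interval of Abcc5 spans 0. Some of the errors are upper limits and the DMSO error is counted for both compounds, which widens the intervals.

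Sequences upstream of the start are shown for 3 of the 4 genes that rose with EnnA at well-measured levels. With 17-AAG these 3 did not move together: Abcc5 was called higher, Abcb1b lower and Abcc4 was not called. The sequences are RefSeq windows on GRCm38 from 250 bases before to 50 bases after the start, on the gene's own strand. Abcb1b lies at chr5:8797897-8798196 (plus strand), Abcc4 at chr14:118706170-118706469 (minus strand, the first of 2 starts in the table) and Abcc5 at chr16:20426345-20426644 (minus strand). Capitals mark letters searched for on both strands. For general promoter elements these were the GC box, spelled GGGCGG, and the CCAAT box. For stress elements they were the antioxidant response element core bound by NRF2, spelled TGACNNNGC, the heat shock element core, spelled GAANNTTC, and the xenobiotic response element core, spelled GCGTG. For inducible factors they were the AP-1 element, spelled TGANTCA, the C/EBP-ATF element, spelled TGATGCAA, the cAMP response element, spelled TGACGTCA, and the E box, spelled CACGTG.
Abcb1b: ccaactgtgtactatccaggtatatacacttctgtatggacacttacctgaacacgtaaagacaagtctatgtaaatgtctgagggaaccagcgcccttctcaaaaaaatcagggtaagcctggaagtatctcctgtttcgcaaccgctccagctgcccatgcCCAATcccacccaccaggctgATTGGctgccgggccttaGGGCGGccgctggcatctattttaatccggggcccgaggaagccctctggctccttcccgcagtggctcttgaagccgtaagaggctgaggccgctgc
Abcc4: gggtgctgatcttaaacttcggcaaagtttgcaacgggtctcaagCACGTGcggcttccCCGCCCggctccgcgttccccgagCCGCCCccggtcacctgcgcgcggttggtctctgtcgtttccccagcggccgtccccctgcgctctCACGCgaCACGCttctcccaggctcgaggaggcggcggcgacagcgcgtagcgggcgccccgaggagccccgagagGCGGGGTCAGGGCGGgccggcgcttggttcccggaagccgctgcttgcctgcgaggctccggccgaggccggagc
Abcc5: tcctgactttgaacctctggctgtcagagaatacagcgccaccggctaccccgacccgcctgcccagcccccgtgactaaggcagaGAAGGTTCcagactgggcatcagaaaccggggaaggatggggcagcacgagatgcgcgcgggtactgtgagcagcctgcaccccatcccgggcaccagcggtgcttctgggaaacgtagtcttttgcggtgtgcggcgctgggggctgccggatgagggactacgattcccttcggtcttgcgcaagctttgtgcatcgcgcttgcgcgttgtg

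Abcb1b held the CCAAT box letters on each strand, at -87 and -66 from the start, and 1 GC box at -48. At the start shown, Abcc4 held 3 GC boxes, 2 copies of the xenobiotic element core, 1 E box and 1 antioxidant core at -25, which lies next to the GC box at -16 and shares no letter with it. The window of its other start, not shown, held 1 antioxidant core, at -23, and none of the other letters. Its GC content was 47.3%. Abcc5 held 1 heat shock core, at -164, and none of the other letters. Among all 32851 windows in the table, 35.7% held a GC box, 37.4% CCAAT, 12.4% the antioxidant core, 7.86% the heat shock core, 32.4% the xenobiotic core and 7.15% the E box. The AP-1 letters stood in 7.81%, the cAMP element in 1.79% and the C/EBP-ATF letters in 0.895% of windows, and none of these stood in the 3 windows shown. No set of letters was common to the 3 windows. Their GC contents were 55.0% for Abcb1b, 72.7% for Abcc4 and 63.0% for Abcc5, beside a median of 52.7% over all windows. The Abcb1a window is not shown because RefSeq's Abcb1a spans 181485 bases and the deposited locus 88479, so its start may differ from that of the authors' gene model. A match is a description of the letters and no evidence of binding.

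Other genes of the ABC family were called in both directions with each compound, as were listed genes in general. Of 45 other ABC family genes written into the lists 19 were listed in at least 1 table. They include 4 genes of subfamilies E and F, such as Abce1, which does not transport. With EnnA 6 of 18 rose and 5 fell, with a median change of 0.08 on the scale with 1 FPKM added, and with 17-AAG 6 of 19 rose and 2 fell, with a median of 0.18. Over all listed genes 24.3% were called higher and 24.9% lower with EnnA, and 15.6% and 16.1% with 17-AAG. In the test between the compounds 3 of 18 were higher and 4 lower with EnnA, beside 19.3% and 18.9% of all genes tested.

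Abcg2, which encodes the breast cancer resistance protein and is the other well-known drug pump of the family, went the opposite way to Abcb1b with EnnA. It had 13.4 FPKM with EnnA and 25.0 FPKM with DMSO, a log2 change of -0.85 on the scale with 1 FPKM added (q = 0.000207 in the authors' deposited table). It had 31.3 FPKM with 17-AAG and 27.4 FPKM with DMSO and was not called (q = 0.35 in the authors' deposited table). Between the compounds Abcg2 differed by -1.09 (95% interval -1.62 to -0.56) on the log2 scale of the deposited ratio and was called lower with EnnA. Abcg1, a sterol exporter, likewise fell with EnnA, to 4.18 FPKM against 8.10 FPKM with DMSO.

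Among the transporters of the endoplasmic reticulum, Tap1 and Tap2, which together load peptides for class I molecules, had 27.0 and 35.0 FPKM with EnnA against 15.5 and 16.4 FPKM with DMSO, and both rose. Tap2 also rose with 17-AAG, with 31.4 FPKM against 17.9 FPKM with DMSO. Abcb10, a mitochondrial member of the B subfamily, fell with EnnA (4.36 FPKM with EnnA, 8.56 FPKM with DMSO). Abcb6, a porphyrin transporter, rose with both compounds, with changes of 0.72 with EnnA and 0.36 with 17-AAG.

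Of the D subfamily, Abcd4, a lysosomal protein of vitamin B12 handling, fell with both compounds, by 0.70 with EnnA and by 0.87 with 17-AAG on the scale with 1 FPKM added, and Abcd3, a peroxisomal half-transporter, fell with EnnA by 0.35.

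Of the remaining called genes, Abca8b rose with both compounds (0.95 with EnnA, 0.72 with 17-AAG), and Abca7, a lipid transporter, rose with 17-AAG by 0.52. Abcc10 was called higher with both compounds (0.725 FPKM with EnnA, 0.447 FPKM with DMSO, and in the other table a change of 0.35 with 17-AAG from a DMSO value of 0.490 FPKM), and Abcg5, listed in the 17-AAG table only, was called higher there (0.626 FPKM with 17-AAG, 0.287 FPKM with DMSO). Their DMSO values lie under the lowest higher-of-the-groups value of the EnnA table, 0.561 FPKM, and of the 17-AAG table, 0.538 FPKM, so like Abcb1a they were listed through the compound group and their calls add nothing to the counts above. Abce1, which recycles ribosomes and does not transport, rose with EnnA by 0.47, and Abcf2 fell with 17-AAG by 0.46. Abca2, Abcb8, Abcb9, Abcf1 and Abcf3 were called in neither table.

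**Figure D4:**
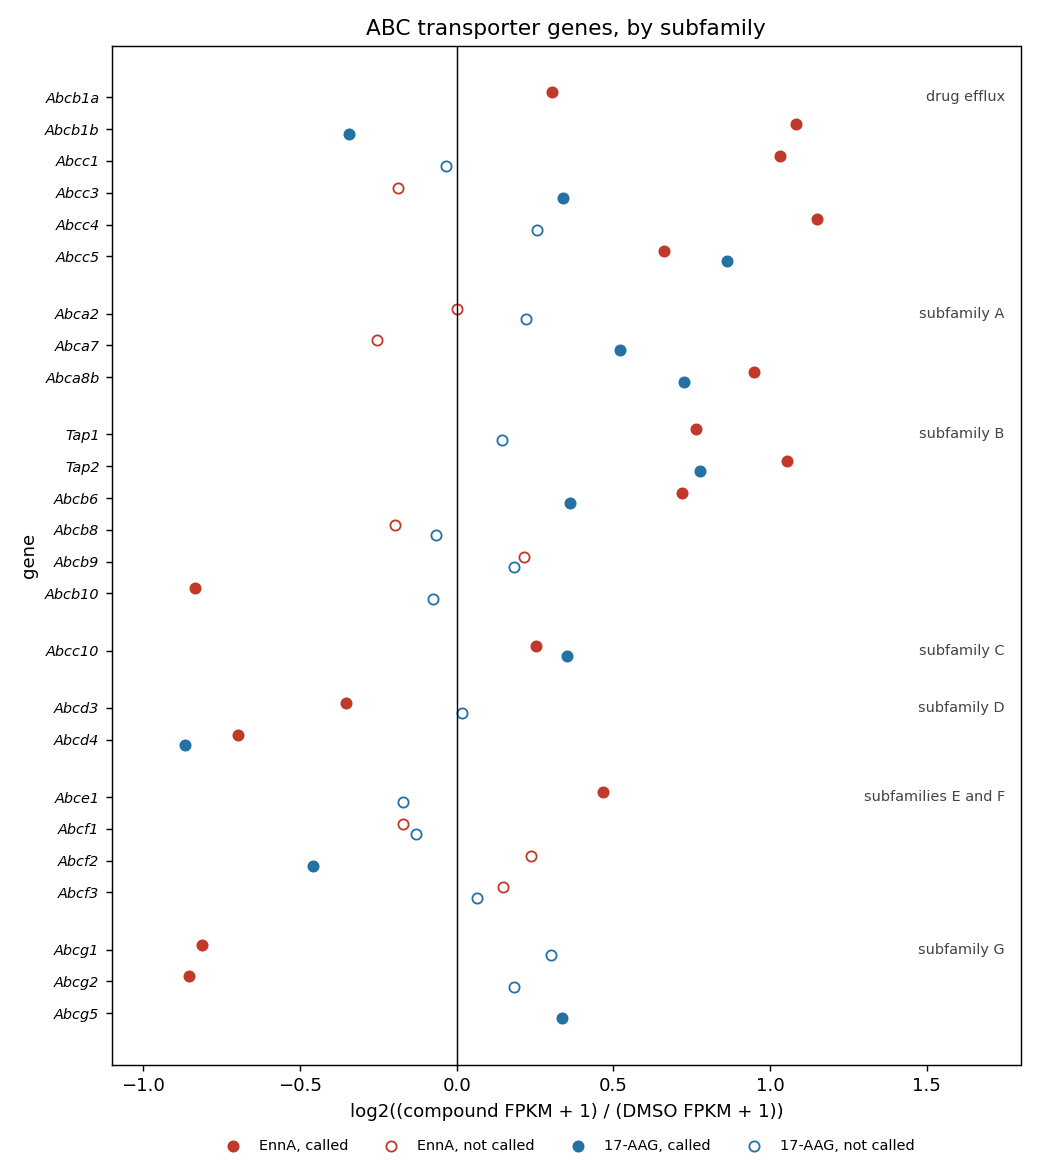
Log2((compound FPKM + 1)/(DMSO FPKM + 1)) of the ABC family genes described, the 6 drug efflux genes at the top and the others by subfamily, with EnnA above 17-AAG in each row. Filled points were called at q under 0.05 in the authors' deposited tables. With EnnA the drug efflux genes reach 1.15 and the G subfamily genes lie at -0.81 and -0.85.

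Factors known to act on efflux gene transcription were also measured. With EnnA 12 of 27 listed factors rose and 2 fell, with a median change of 0.24; the 12 include Nr1h4 (0.799 FPKM with EnnA, 0.378 FPKM with DMSO), which was listed through the EnnA group and adds nothing to the count. With 17-AAG 5 of 26 rose and 2 fell, with a median of 0.09. The shares over all listed genes were 24.3% higher and 24.9% lower with EnnA, and 15.6% and 16.1% with 17-AAG. Trp53, whose product acts on P-glycoprotein genes, had the largest change with EnnA, at 79.1 FPKM against 34.3 FPKM with DMSO. Myc (266.6 FPKM with EnnA, 132.6 FPKM with DMSO), Foxo3 (12.5 and 5.83 FPKM in EnnA and DMSO cells) and Atf4 (612.3 FPKM with EnnA, 342.4 FPKM with DMSO) followed. Nfe2l2, which encodes NRF2, had 92.4 FPKM with EnnA and 93.8 FPKM with DMSO and was not called, and Keap1, its inhibitor, fell with EnnA (6.57 FPKM with EnnA, 10.1 FPKM with DMSO). Hsf1 was called with neither compound.

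With 17-AAG the largest change in that list was in Vdr, the vitamin D receptor gene, at 12.1 FPKM with 17-AAG and 1.04 FPKM with DMSO. Nr1h3, a sterol-sensing nuclear receptor gene, rose to 9.77 FPKM with 17-AAG, against 4.73 FPKM with DMSO, and Foxo3 and Trp53 rose by 0.61 and 0.51 on the scale with 1 FPKM added. Jun fell with 17-AAG by 0.46 and rose with EnnA by 0.36. Whether any of these factors acts on the members in these cells was not tested.

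Glutathione is a cosubstrate of Abcc1, and 21 of 27 genes of its supply and conjugation were listed. With EnnA 7 rose and 4 fell, with a median change of 0.13, beside 24.3% of all listed genes called higher and 24.9% lower. With 17-AAG 5 rose and 8 fell, with a median of 0.04, beside 15.6% called higher and 16.1% lower. Slc3a2, the shared subunit of the cystine importer, had 370.4 FPKM with EnnA and 84.5 FPKM with DMSO. Slc7a11, its partner in that importer, rose less with EnnA, to 2.36 FPKM against 1.57 FPKM with DMSO. It also rose with 17-AAG, by 0.44 on the scale with 1 FPKM added. Gsto1, a glutathione transferase gene, had 460.2 FPKM with EnnA and 177.2 FPKM with DMSO, whereas Mgst3 and Gstt1 fell to 4.24 and 12.0 FPKM with EnnA, against 40.4 and 36.1 FPKM with DMSO. Gclm and Gss, genes of glutathione synthesis, rose with EnnA by 0.74 and 0.63. In the same list Gsr fell with EnnA by 0.91 and Gclc was not called. Gss and Gsr fell with 17-AAG by 0.55 and 0.66, and Gclm and Gclc were not called there. With 17-AAG Gsta4 rose (13.5 FPKM with 17-AAG, 5.95 FPKM with DMSO), Nqo1 fell (42.0 FPKM with 17-AAG, 81.5 FPKM with DMSO), and Gstp2 and Mgst3 fell by 0.78 and 0.69 on the scale with 1 FPKM added. Gstp2 has a near-identical neighbour, Gstp1, and its value is uncertain.

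The genes whose pair of changes lay nearest to a member's were found among 8424 genes with at least 5 FPKM in a group of each table, by distance in the plane of the EnnA and 17-AAG log2 changes. For Abcb1b these were Msra and Rhox2d, at distances of 0.02 and 0.03 log2 units, and for Abcc1 Ttc37 and Spata5, at 0.03 each. For Abcc4 they were St7 and Ddr2, at 0.02 each, for Abcc3 Mau2 and Fam3a, at 0.01 each, and for Abcc5 Camkk1 and Gm12942, at 0.06 and 0.08. These rest on 2 changes that share their DMSO libraries. The distances use the scale with 1 FPKM added, which shrinks Abcc3 more than genes with at least 5 FPKM. Abcc3 changed by -0.19 with EnnA and 0.34 with 17-AAG on that scale, and by -0.37 and 0.55 from the ratio. Its nearest genes may therefore not be near it by the ratio.

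Among the listed neighbours of the members on the chromosome that are no members themselves, Parl was the one called higher with EnnA. Slc25a40 and Rsad1 were called lower, beside 24.3% of all listed genes called higher and 24.9% lower. Crot, the nearest listed gene above Abcb1b at 99.7 kb, had 24.1 FPKM with EnnA and 24.3 FPKM with DMSO. Slc25a40, the nearest below Abcb1a at 205.3 kb, fell with EnnA by 0.64. Fopnl, 44.2 kb below Abcc1, had 59.4 FPKM with EnnA and 62.8 FPKM with DMSO and fell with 17-AAG by 0.49, and Ube2v2, 1076 kb above it, was called with neither compound. Parl, a mitochondrial protease gene 28.9 kb below Abcc5, rose with EnnA, with 67.7 FPKM against 28.0 FPKM with DMSO, but was not called with 17-AAG, while Eif2b5 above Abcc5 was called with neither. The neighbours of Abcc4, Gpr180 and Dzip1, were not called with EnnA, and Dzip1 rose with 17-AAG by 0.56; of those of Abcc3, Ankrd40 was called with neither compound and Rsad1 fell with EnnA by 0.45. No listed gene overlapped the locus of a member.

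The label of breast cancer cells was set against markers: of 8 mammary epithelial markers Krt8 and Epcam were listed, with 17.7 and 1.61 FPKM in DMSO cells of the EnnA table. Krt8 fell with EnnA (11.2 FPKM with EnnA, 17.7 FPKM with DMSO) and rose with 17-AAG (29.3 FPKM with 17-AAG, 19.4 FPKM with DMSO), and Epcam was called with neither. Of 3 endothelial markers 0 were listed, and of 7 leukocyte markers Cd68 and Lyz2 were, without Ptprc. Of 5 fibroblast markers 3 were listed, their summed level being 34.1 FPKM with EnnA and 15.4 FPKM with DMSO, and 24.3 FPKM with 17-AAG and 16.9 FPKM with DMSO in the other table. Pdgfra rose with EnnA (26.5 FPKM with EnnA, 10.1 FPKM with DMSO) and was not called with 17-AAG, and Pdgfrb rose with both compounds. Col1a1 was not called with EnnA (0.364 FPKM with EnnA, 0.566 FPKM with DMSO) and rose with 17-AAG (3.95 FPKM with 17-AAG, 0.620 FPKM with DMSO). The summed leukocyte markers were 97.9 FPKM with EnnA and 50.1 FPKM with DMSO, and 32.9 FPKM with 17-AAG and 54.9 FPKM with DMSO. Cd68 rose with EnnA by 1.21 and fell with 17-AAG by 1.23 on the scale with 1 FPKM added, while Lyz2 fell with EnnA by 0.44 and was not called with 17-AAG. Fabp4, the listed one of 3 adipocyte markers, was the most abundant of the listed markers in DMSO cells and fell with both compounds. It had 148.2 FPKM with EnnA and 430.8 FPKM with DMSO, and 55.7 FPKM with 17-AAG and 472 FPKM with DMSO in the other table. The part of these genes' changes in those of the transporters was not tested.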

How the data were processed

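Libraries of E0771 cells (2 each for EnnA, 17-AAG and DMSO) were aligned to mm9 with STAR and compared with Cufflinks and Cuffdiff, per the submitters' processing notes, which name no versions. The authors deposited 1 table per compound, read here with Python 3.11.15, pandas 2.3.3 and scipy 1.17.1. The deposited levels carry no unit in the header and were taken to be FPKM, as Cuffdiff reports, pooled by the authors over both libraries. The deposited log2 fold change is DMSO over compound and its sign was turned. The p-value and q-value are the authors' own, the q being their p after Benjamini-Hochberg adjustment across the table, and calls used q under 0.05.

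Sizes are log2((compound + 1)/(DMSO + 1)), which understates changes of low genes, or FPKM ratios where said. Standard errors are the size of the deposited log2 change over the normal quantile of its p. The compounds were compared by a z test on those errors, adjusted over all genes by Benjamini-Hochberg. DMSO cancels from that difference while its error is counted for both tables, and no exact test is possible on pooled values, so intervals and calls stand without p. Depth is unknown.

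Members and lists were chosen with earlier results of these data known, so no list was tested. Named were all members, other ABC genes called in at least 1 table, up to 4 called genes per further list and table by size, the 2 nearest patterns and the nearest neighbours on each side. Nfe2l2, Keap1, Hsf1, Jun, Gclm, Gss, Gclc, Gsr, Slc7a11, Nr1h4 and Pde4d were added after their values were seen. So were the named genes' values in the other table, the uncalled ABC genes and the markers. Some ABC genes are not reported here and stay out of the list counts. RefSeq promoter windows covered 4 of the 6 members. Alternatives were a q under 0.01, a 2-fold minimum, a minimum of 1 FPKM, genes in both tables, pseudocounts of 0, 0.1 and 5, and centring on the median.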

Additional observations from a re-analysis of the deposited data

How the results depend on the processing

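With EnnA the count of 5 members higher and 0 lower stayed within 1.5 times under a q under 0.01, a 2-fold minimum (Abcc5 left out), a minimum of 1 FPKM and genes in both tables. It was 4 and 0 without Abcb1a, a setting chosen after seeing the data, with a median change of 1.03. With 17-AAG the 2 higher and 1 lower became 1 and 0 at a q under 0.01 and 0 and 0 with a 2-fold minimum, and the lower count was 0 with q over genes in both tables, where Abcb1b had a q of 0.0507. In the difference between compounds Abcc4 was not called at an adjusted p under 0.01, and with a minimum 2-fold difference the member lower with EnnA was lost, leaving 0, as was Abcc4. A pseudocount cannot turn the direction of a log2 change, so those settings bear on its size only. Centring used table medians of -0.007 with EnnA and -0.008 with 17-AAG, too near 0 to be a strong check, and turned no direction. The largest shift was in Abcb1a, at 1.09 with pseudocount 0 and 0.31 with pseudocount 1. No paired analysis was possible because the deposited values are pooled over replicates, which also kept any library from being left out. The unknown depth limits Abcb1a and Abcc3, the members near 1 FPKM or under it.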

Other observations

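Drug uptake carriers, the counterpart of efflux, were listed for 7 of 16 genes. With EnnA 5 rose and 0 fell, with a median change of 0.65 on the scale with 1 FPKM added. With 17-AAG 2 rose and 0 fell, with a median of 0.16. Of all listed genes 24.3% were called higher and 24.9% lower with EnnA, and 15.6% and 16.1% with 17-AAG. Slc29a1, the equilibrative nucleoside transporter through which nucleoside drugs enter, had 210.4 FPKM with EnnA and 98.3 FPKM with DMSO. Slc31a1, a copper importer, had 88.8 FPKM with EnnA and 49.1 FPKM with DMSO, and the carnitine and cation carriers Slc22a4 and Slc22a5 rose by 0.78 and 0.65. Slco2a1, a prostaglandin carrier, rose with both compounds, by 0.56 with EnnA and 0.65 with 17-AAG, and Slc29a2 rose with 17-AAG by 0.40.

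Genes that make or break down the signals carried by Abcc1, Abcc4 and Abcc5 moved in both directions, as did listed genes in general. Of 19 listed genes 5 rose and 4 fell with EnnA, beside 24.3% of all listed genes called higher and 24.9% lower. With 17-AAG 4 of the 19 rose and 5 fell, beside 15.6% called higher and 16.1% lower. The rises include Pde4d with both compounds, listed through the compound groups (0.879 FPKM with EnnA, 0.432 FPKM with DMSO; 0.818 FPKM with 17-AAG, 0.473 FPKM with DMSO), whose calls add nothing to the counts. Ptges, the inducible synthase of prostaglandin E2, rose with EnnA (120.2 FPKM with EnnA, 87.7 FPKM with DMSO) and fell with 17-AAG (35.5 FPKM with 17-AAG, 96.1 FPKM with DMSO). Alox5ap, an activator of leukotriene synthesis, fell with both compounds, by 1.81 with EnnA and by 0.62 with 17-AAG on the scale with 1 FPKM added. Among genes of cyclic nucleotide turnover, Pde4a and Adcy7 fell with EnnA by 0.98 and 0.76 and rose with 17-AAG by 0.48 and 0.71, while Pde1b rose with both compounds (2.65 FPKM with EnnA, 1.53 FPKM with DMSO; 4.34 FPKM with 17-AAG, 1.68 FPKM with DMSO). Sgpl1, which breaks down sphingosine 1-phosphate, rose with EnnA by 1.13.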
